A study of Homo sapiens with 6 samples.

Results

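The BCL2 family decides at the outer membrane of the mitochondrion whether a cell under stress lives or dies, and 10 of its genes were followed here by name in K562 cells. They are the survival genes BCL2, BCL2L1 and MCL1, the pore forming genes BAX and BAK1, and the BH3-only genes BID, BAD, BCL2L11, BBC3 and PMAIP1. All 10 were found, once each, among the 16586 gene symbols listed once with a value for every line. K562 is an established BCR-ABL positive human leukemia line with erythroid features. All 3 lines carry a stable, doxycycline inducible PiggyBac cassette, which was empty in CTR cells, coded for wild type C/EBPα in CEBPA cells and for its short p30 isoform in P30 cells. Each line was treated with 200 ng/ml doxycycline for 48 h, and RNA-seq was performed on 2 replicates of each, 6 samples in all. The paper describes 2 sequencing runs that differed in instrument, read length and site of library preparation. The sample labels do not assign the samples to these runs. Whether a line is 1 clone or a pool of clones is not given in the sources used here, and no untreated cells were analysed here, so that a difference between separately made lines and an effect of the induced protein cannot be told apart. CEBPA itself was not analysed here, so the induced gene could not be used to check the labels.

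Levels are FPKM, by definition the fragments of a gene scaled to transcript length and to the mapped fragments of the library. How the authors normalized the libraries is not given in the sources used here, and they pooled both replicates into 1 value per gene and group. No SD, test or replicate check can therefore be computed from these pooled values, and they do not carry the read count behind a gene. Changes are differences of log2(FPKM + 1), and the added 1 makes the change of weakly expressed genes look smaller than it is. A gene is said to have risen or fallen only where this difference reached 2-fold, and a second limit was set at 1.5-fold, both among genes above 1 FPKM in either line of a comparison. Across all 13673 genes of CEBPA vs CTR the median change was -0.01 and the spread (scaled median absolute deviation) 0.73. Across the 12395 genes of P30 vs CTR these were 0.02 and 0.20. Of 8 erythroid marker genes 6 had a value in every group, with a summed level of 1653 FPKM in CTR, 574 in CEBPA cells and 1140 in P30, and each exceeded 1 FPKM in every line. Of 8 granulocyte markers 6 had a value, with a summed level of 7.13 FPKM in CTR, 8440 in CEBPA cells and 42.2 in P30. S100A8 (3731 FPKM) and S100A9 (4623 FPKM) made up nearly all of the CEBPA sum, and 5 of the 6 rose in CEBPA vs CTR, where 14.0% of all genes did. The exception was ITGAM, with 2.59, 2.43 and 14.3 FPKM, which was highest in P30. The lymphocyte marker CD3E had 0.818, 0.328 and 0.513 FPKM. The part of this shift of markers in the results that follow was not tested. In such bulk RNA, fewer cells of a type and less RNA per cell cannot be told apart.

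The proteins of the family act by binding each other. BAX and BAK1 make pores in the outer membrane, through which cytochrome c escapes and switches on the caspases. The survival proteins hold BAX and BAK1 and the BH3-only proteins in check, and the BH3-only proteins carry the death signal by filling the groove of the survival proteins or by activating BAX and BAK1. In red cell precursors BCL2L1 is known as the main survival gene, whereas cells of the granulocyte lineage are known to depend on MCL1.

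The feature that ties the 10 genes together is the BH3 segment, the short helix that fits into the groove of a partner. It is shown here because it is what survival and death members share. Each line gives the 45 bases, 15 codons, of the coding strand around the BH3 core of the canonical Gencode transcript, read from GRCh37. Capitals mark the codon of the conserved leucine and the last pair of codons of the 6 codon core, a small residue followed by aspartate.
BCL2: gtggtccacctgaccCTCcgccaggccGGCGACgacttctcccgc
BCL2L1: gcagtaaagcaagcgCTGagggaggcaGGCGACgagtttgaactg
MCL1: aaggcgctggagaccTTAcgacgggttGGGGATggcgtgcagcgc
BAX: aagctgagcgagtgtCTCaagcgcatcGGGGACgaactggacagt
BAK1: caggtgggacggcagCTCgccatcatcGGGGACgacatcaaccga
BID: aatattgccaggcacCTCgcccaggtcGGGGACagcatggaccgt
BAD: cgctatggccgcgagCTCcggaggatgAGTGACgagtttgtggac
BCL2L11: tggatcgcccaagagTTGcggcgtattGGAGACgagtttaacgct
BBC3: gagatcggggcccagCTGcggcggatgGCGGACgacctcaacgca
PMAIP1: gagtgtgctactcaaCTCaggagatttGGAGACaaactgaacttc
The small residue was glycine in 8 of the 10 genes, serine in BAD and alanine in BBC3. Over the 45 pairs of members, 3 to 8 of the 15 encoded residues were identical. Only BID held more than 1 match to the core, with 2, and the one most like the other members is shown. The window of BCL2L1 lies at chr20:30309725-30309769 (minus strand, exon 2 of 3). The window of MCL1 lies at chr1:150551341-150551385 (minus strand, exon 1 of 3). The window of BBC3 lies at chr19:47729836-47729880 (minus strand, exon 3 of 4). The other windows are BCL2 at chr18:60985582-60985626, BAX at chr19:49459029-49459073, BAK1 at chr6:33543164-33543208, BID at chr22:18222181-18222225, BAD at chr11:64039094-64039138, BCL2L11 at chr2:111907665-111907709 and PMAIP1 at chr18:57569890-57569934, each within 1 coding exon.

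In CTR cells BCL2L1 (82.2 FPKM), BAX (80.1) and MCL1 (77.4) were at the top, a survival gene and a pore forming gene at nearly the same level. BAD (39.4) and BID (39.2) followed, then BAK1 (16.9), BBC3 (9.98), PMAIP1 (8.50) and BCL2L11 (7.56). BCL2, the founding survival gene of the family, came last with 0.513 FPKM. Neighbours in this order that are close, such as BCL2L1 and BAX with a ratio of 1.03 or BAD and BID with a ratio of 1.01, have no known spread and are not ranked against each other. The order in P30 was nearly the same. In CEBPA, MCL1 led with 3.50 times the level of BAX, the next gene, and BCL2L1 lay beside BID and BAD, within a ratio of 1.06 of either.

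**Figure D1:**
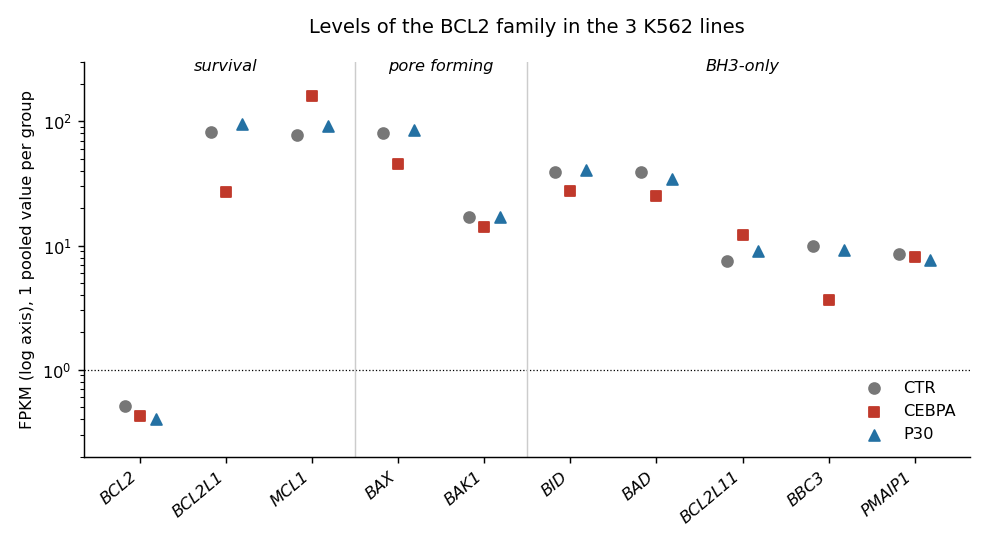
FPKM on a log axis for each of the 10 genes in CTR (circles), CEBPA (squares) and P30 (triangles), 1 pooled value per group, with a dotted line at 1 FPKM. CTR and P30 lie close together in every gene, the CEBPA value of BCL2L1 (26.7) lies far below the other lines, that of MCL1 (158) above them, and BCL2 stays under 1 FPKM throughout.

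Among the survival genes, BCL2L1 had 82.2 FPKM in CTR, 26.7 in CEBPA cells and 95.6 in P30. CEBPA cells were thus the low line and P30 the high one. BCL2L1 codes for Bcl-xL, which holds BAX and several BH3-only proteins. It fell in CEBPA vs CTR by 1.58 on the log2 scale, with 3.07 times more FPKM in CTR than in CEBPA. Only 230 of the 13673 genes compared (1.68%) fell as far, BCL2L1 included. In CEBPA vs P30, which uses the same CEBPA libraries, it fell by 1.80, as did 87 of 13569 genes (0.641%). The gene lies on the minus strand of chromosome 20 (30252255 to 30311792, GRCh37), and its FPKM is 1 value for all its transcripts. The short splice form Bcl-xS promotes death, and the values do not separate it from Bcl-xL.

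MCL1 had 77.4 FPKM in CTR, 158 in CEBPA cells and 91.5 in P30. Here CEBPA was the high line, the reverse of BCL2L1. MCL1 is a short-lived survival protein that is held in check by PMAIP1, and its abundance is known to follow its mRNA and its degradation closely. It rose in CEBPA vs CTR by 1.02 on the log2 scale, a ratio of 2.05, as did 1850 genes (13.5%), so that a rise of this size was common in these cells. In CEBPA vs P30 it was higher by 0.79, short of 2-fold. The gene lies on the minus strand of chromosome 1 (150533371 to 150552214, GRCh37). On its own strand it overlaps ADAMTSL4-AS1, RN7SL473P and RN7SL600P, whose reads a strand setting would not set apart. It also overlaps ADAMTSL4 on the other strand. The libraries were strand-specific, but TopHat was run with default parameters and no strand setting is given in the sources used here, so reads of such partners, and of the antisense genes at BCL2L1, may be included.

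BCL2 itself had 0.513 FPKM in CTR, 0.427 in CEBPA cells and 0.404 in P30. It was under 1 FPKM in all 3 lines and therefore not among the genes compared. Of the 13670 genes over 1 FPKM in at least 1 line, 7.73% were at or below BCL2 in CTR and 1.15% in CEBPA. Those genes were thus under 1 FPKM in the line named and over it in another.

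Of the pore forming genes, BAX had 80.1 FPKM in CTR, 45.3 in CEBPA cells and 85.2 in P30. CEBPA was the low line, with a log2 difference to CTR of -0.81, past 1.5-fold but short of 2-fold. BAK1, which does the same work as BAX at the mitochondrion, had 16.9, 14.0 and 17.0 FPKM, a log2 difference of -0.25. The ratio of BAX to BAK1 was 4.74 in CTR, 3.23 in CEBPA and 5.03 in P30. The 2 pore forming genes were thus less unequal in CEBPA, mostly by the lower BAX.

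The BH3-only genes did not move as a group. BBC3, which codes for PUMA, a strong killer that binds all survival proteins, had 9.98 FPKM in CTR, 3.67 in CEBPA cells and 9.22 in P30. It was the death gene with the largest change and fell in CEBPA vs CTR by 1.23 on the log2 scale, as did 532 genes (3.89%). In CEBPA vs P30 it fell by 1.13. BCL2L11, which codes for BIM, an activator that binds all survival proteins, had 7.56 FPKM in CTR, 12.2 in CEBPA cells and 9.08 in P30. This was the only death gene that was higher in CEBPA than in CTR, by 0.62 on the log2 scale, past 1.5-fold. The ratio of BCL2L11 to BBC3 went from 0.758 in CTR to 3.32 in CEBPA, with 0.985 in P30. The leading gene of this pair was thus BBC3 in CTR and BCL2L11 in CEBPA.

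BAD, which is kept inactive by kinases and 14-3-3 proteins and binds Bcl-xL when it is released, had 39.4 FPKM in CTR, 25.2 in CEBPA cells and 34.4 in P30, a log2 difference of -0.63 in CEBPA vs CTR. BID, the link from death receptors to the mitochondrion after its cleavage by caspase 8, had 39.2, 27.7 and 40.8 FPKM, a difference of -0.49. Both were lowest in CEBPA and neither fell 2-fold. PMAIP1, which codes for NOXA, the BH3-only partner of MCL1, stayed near one level, with 8.50 FPKM in CTR, 8.12 in CEBPA cells and 7.61 in P30. The level of MCL1 was 9.11 times that of PMAIP1 in CTR and 19.5 times in CEBPA. The log2 difference of PMAIP1 in CEBPA vs CTR was only -0.06, and it changed sign, to 0.04, when the groups were scaled to the same summed FPKM.

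Counted over the 9 members above 1 FPKM, 1 rose 2-fold in CEBPA vs CTR (MCL1), where 14.0% of all genes did, and 2 fell (BCL2L1 and BBC3), where 6.92% of all genes did. At 1.5-fold, 2 were higher, against 24.0% of all genes, and 4 were lower, against 18.6%. The median change of the 9 was -0.49, beside -0.01 for all genes. In CEBPA vs P30 none of the 9 rose 2-fold (13.1% of all genes), 2 fell (5.79%), 1 was 1.5-fold higher (22.3%) and 3 were 1.5-fold lower (17.8%). CEBPA vs CTR and CEBPA vs P30 share the CEBPA libraries, and CEBPA vs CTR and P30 vs CTR share those of CTR.

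**Figure D2:**
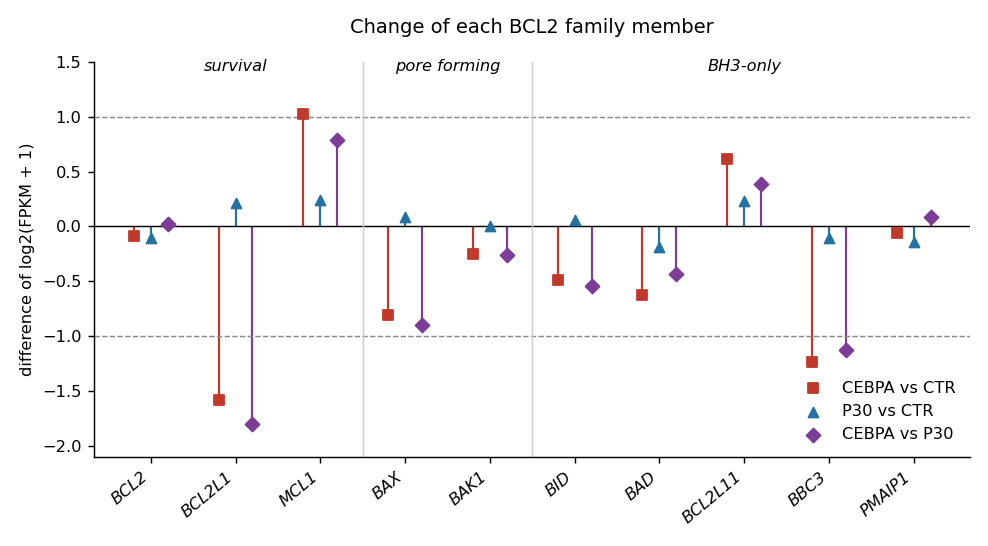
Difference of log2(FPKM + 1) for each gene in CEBPA vs CTR (squares), P30 vs CTR (triangles) and CEBPA vs P30 (diamonds), with dashed lines at 2-fold. BCL2L1 (-1.58 and -1.80) and BBC3 (-1.23 and -1.13) pass the lower line in both comparisons with CEBPA, MCL1 (1.02) passes the upper line against CTR, and the P30 vs CTR values stay within 0.24 of 0.

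P30 cells differed little from CTR cells in this family. None of the 9 members rose 2-fold (1.02% of all genes) and none fell (0.613%), and at 1.5-fold none was higher (2.69%) or lower (2.63%). The log2 differences ran from -0.19 in BAD to 0.24 in MCL1, in a comparison in which all genes had a spread of 0.20. BCL2L1 (0.22), MCL1 (0.24) and BCL2L11 (0.24) were the highest, and from 14.4% to 16.7% of all genes rose as far as these. BAX (0.09) and BBC3 (-0.10) were close to 0.

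**Figure D3:**
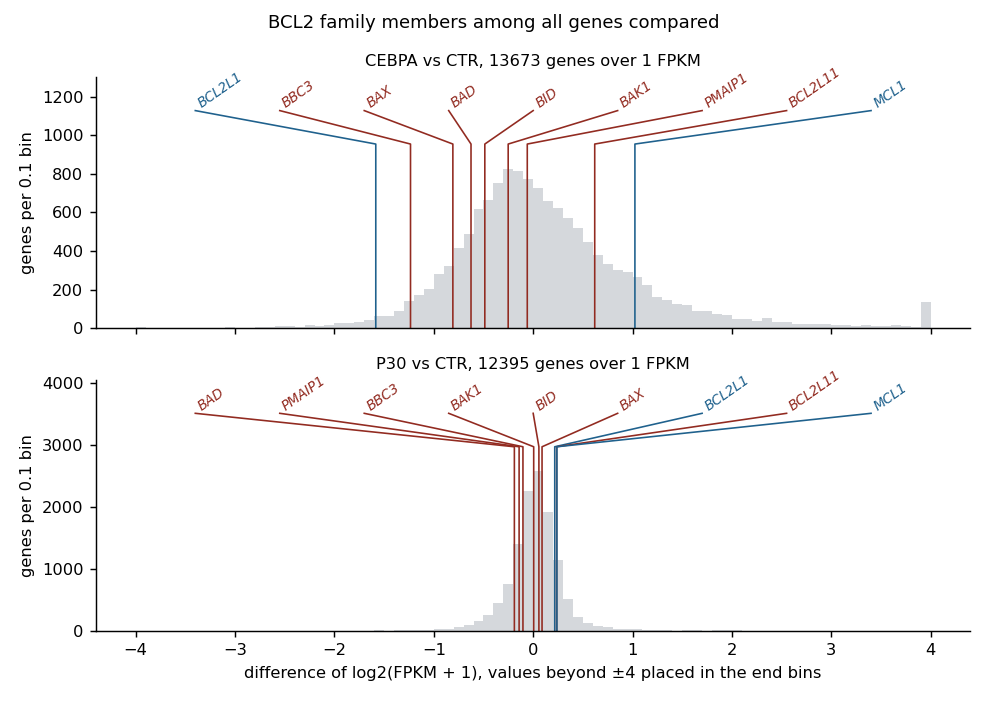
Number of genes per bin of 0.1 in the difference of log2(FPKM + 1) (grey) for CEBPA vs CTR and P30 vs CTR, with the survival genes (blue) and the death genes (red) marked at their values and BCL2 left out as under 1 FPKM. The heights of the panels differ. BCL2L1 and BBC3 lie in the lower tail of CEBPA vs CTR, whereas in P30 vs CTR all 9 genes lie near the middle.

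To set survival against death, the FPKM of each class were added up, which is possible because FPKM are per transcript length. The 3 survival genes summed to 160 FPKM in CTR, 186 in CEBPA cells and 188 in P30. The 7 death genes summed to 202, 136 and 203 FPKM. The survival sum was thus nearly the same in CEBPA and P30, while CEBPA had the low death sum. The ratio of survival to death was 0.794 in CTR, 1.36 in CEBPA and 0.922 in P30. From CTR to CEBPA the death sum fell by 65.5 FPKM, of which BAX made up 53.1%. Within the death sum the BH3-only genes held 51.9% in CTR, 56.4% in CEBPA and 49.8% in P30. Within it BCL2L11 held 3.75% in CTR and 8.93% in CEBPA, BBC3 4.95% and 2.69%, and BAX 39.7% and 33.3%.

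In CTR the survival sum was shared about equally by BCL2L1 (51.3%) and MCL1 (48.4%), and in P30 likewise (51.0% and 48.8%). In CEBPA MCL1 held 85.4% and BCL2L1 14.4%. From CTR to CEBPA, BCL2L1 dropped by 55.4 FPKM and MCL1 gained 81.0 FPKM. The ratio of MCL1 to BCL2L1 was 0.943 in CTR, 0.957 in P30 and 5.93 in CEBPA. Within this choice of genes, the ratio of survival to death in CEBPA rests on MCL1. Without MCL1 the ratio was 0.410 in CTR, 0.200 in CEBPA and 0.472 in P30, and CEBPA became the lowest line. The survival relatives BCL2L2 and BCL2A1, described below, are not in these sums. BCL2A1 had 0.113 FPKM in CTR, 120 in CEBPA cells and 0.747 in P30. The ratio without MCL1 was not computed with the relatives added, so its dependence on MCL1 in the wider family was not tested. The median change of a class says little here, because the 2 survival genes over 1 FPKM went opposite ways (median -0.28 in CEBPA vs CTR, against -0.49 for the 7 death genes).

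**Figure D4:**
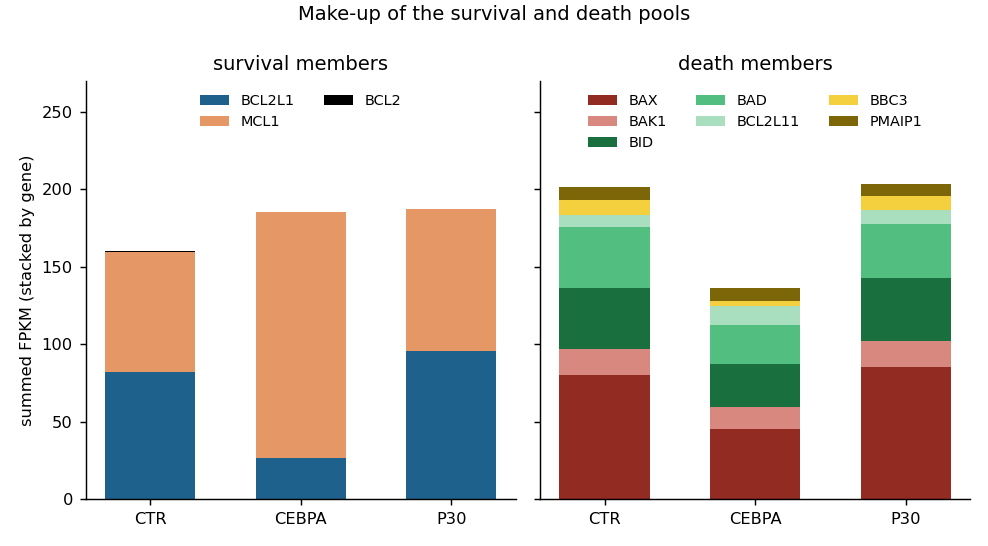
Stacked bars of summed FPKM, starting at 0, for the survival genes (left) and the death genes (right) in the 3 lines, with BCL2 too low to be seen in most bars. The survival bars reach 160, 186 and 188 FPKM, and BCL2L1, the lower segment, takes 14.4% of the CEBPA bar against 51.3% of the CTR bar, while the death bar of CEBPA is the lowest, at 136 FPKM.

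The largest change in the wider family was outside the 10 genes. BCL2A1, a survival gene of granulocytes and macrophages that codes for BFL-1, had 0.113 FPKM in CTR, 120 in CEBPA cells and 0.747 in P30. It was under 1 FPKM in CTR and P30 and rose in CEBPA to above the level of BAX. The log2 change was 6.76 in CEBPA vs CTR, where 13 of 13673 genes rose as far, BCL2A1 included, and 6.11 in CEBPA vs P30. BCL2L2, the survival gene that codes for Bcl-w, had 249, 182 and 242 FPKM, the highest level of the family in each line. Its row overlaps the readthrough gene BCL2L2-PABPN1, so this level is uncertain. With both genes added, the survival sum was 409 FPKM in CTR, 488 in CEBPA cells and 430 in P30. In CEBPA, BCL2L2 held 37.4% of it, MCL1 32.5%, BCL2A1 24.6% and BCL2L1 5.48%. In CTR these were 60.8%, 18.9%, 0.0277% and 20.1%.

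The other death relatives had values for 7 of 8 genes. BNIP3L, a mitophagy receptor that clears mitochondria from maturing red cells, had 70.6 FPKM in CTR, 26.5 in CEBPA cells and 86.2 in P30 and fell by 1.38 in CEBPA vs CTR. BCL2L14 had 0.0207 FPKM in CTR and 1.67 in CEBPA and was listed at 0 in P30, a rise of 1.39 on the log2 scale at a very low level. BNIP3, the hypoxia induced relative of BNIP3L, went the other way, with 49.2, 72.3 and 58.0 FPKM, short of 2-fold. BCL2L13 had 46.6, 64.2 and 45.3 FPKM. BMF (5.49 at the highest, in P30), BOK (1.24, 1.05 and 1.15) and BIK (1.00, 0.271 and 0.685) were low in all lines. BCL2L10 and HRK were not analysed here.

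Downstream of the mitochondrion, 1 of the 8 genes of caspase activation rose in CEBPA vs CTR and none fell, with a median change of 0.25, near the shares of all genes (14.0% and 6.92%). The gene was APAF1, the scaffold of the apoptosome, with 6.67 FPKM in CTR, 16.7 in CEBPA cells and 8.59 in P30. Of the inhibitors of apoptosis, 5 of 7 were over 1 FPKM and none passed 2-fold, with XIAP, the direct caspase inhibitor (7.52, 14.8 and 8.54 FPKM), and BIRC5, which codes for survivin and is made in dividing cells (65.8, 37.8 and 64.0), at the ends. The 3 channel genes VDAC1, VDAC2 and VDAC3, which serve as docking sites on the outer membrane, were flat, from -0.13 to 0.03 in CEBPA vs CTR. In the death receptor arm 1 of 8 genes rose and none fell, again near the shares of all genes (14.0% and 6.92%). It was TNFRSF10B, the TRAIL receptor DR5, with 10.9 FPKM in CTR, 38.4 in CEBPA cells and 10.9 in P30, a log2 change of 1.73. CFLAR was not analysed here.

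Next were genes known to act on the stability or activity of members, or listed as such. Of 4 genes listed for MCL1 turnover with a value, 2 rose in CEBPA vs CTR (14.0% of all genes). FBXW7, which tags MCL1 protein for degradation, had 6.23, 18.9 and 7.01 FPKM in CTR, CEBPA and P30. TRIB2, which is known for the degradation of C/EBPα rather than of MCL1, had 20.9, 74.1 and 27.3. USP9X was not analysed here. Among 10 BAD kinases and 14-3-3 genes 2 fell and none rose (6.92% and 14.0% of all genes), both kinases of the PIM family that phosphorylate BAD. PIM1 had 273 FPKM in CTR, 73.8 in CEBPA cells and 325 in P30, and PIM2 74.4, 31.4 and 94.8. Their log2 changes in CEBPA vs CTR were -1.87 and -1.22. The median of the list was -0.36.

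Of 12 transcription factors and regulators known to act on the family, 3 fell in CEBPA vs CTR and none rose (6.92% and 14.0% of all genes). The median was -0.88, beside -0.01 for all genes, and 11 of the 12 values were below 0. The share of all genes below 0 was not computed. GATA1, the erythroid factor known to act on BCL2L1, had 185 FPKM in CTR, 53.1 in CEBPA cells and 193 in P30, a log2 change of -1.78. E2F1 (22.8, 10.8 and 26.4 FPKM) and MDM2 (22.7, 9.86 and 16.4), a ubiquitin ligase, were the others. In CEBPA vs P30, MDM2 was lower by less (-0.68), since P30 was itself lower than CTR (-0.44), while GATA1 and E2F1 fell. There the fall also passed 2-fold in STAT5A (72.5, 40.3 and 95.2 FPKM), which acts on BCL2L1 downstream of cytokine receptors and BCR-ABL. ATF4 (351, 179 and 383) and FOXO4 (by 1.06 on the log2 scale) fell too. In this comparison 5 of the 12 thus fell 2-fold, where 5.79% of all genes did. The 8 proliferation genes had a median change of -0.79 in CEBPA vs CTR and of 0.08 in P30 vs CTR. In CEBPA vs CTR 1 of them (TYMS) fell 2-fold, where 6.92% of all genes did. In P30 vs CTR no gene of the family or of these pathway lists passed 1.5-fold among those over 1 FPKM, in a comparison where few of all genes did (2.69% higher and 2.63% lower).

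**Figure D5:**
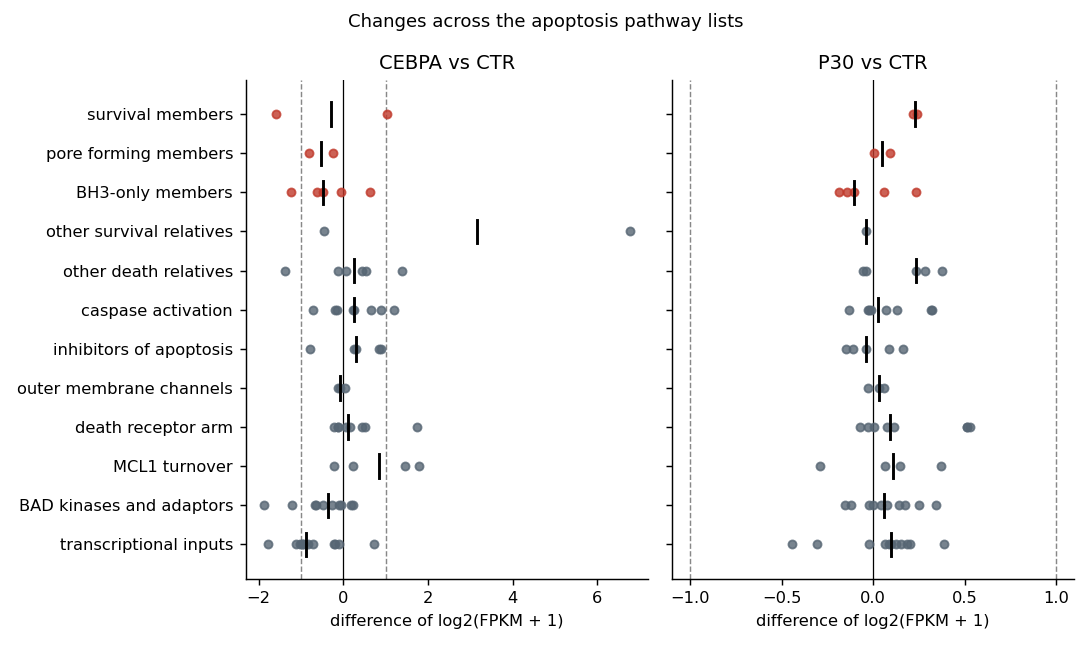
Difference of log2(FPKM + 1) for genes over 1 FPKM of each list (points) with the median of the list (black bar), for CEBPA vs CTR and P30 vs CTR, red for the 10 genes and grey for the other lists, with dashed lines at 2-fold. The scales of the panels differ: BCL2A1 reaches 6.76 in CEBPA vs CTR, and no point of P30 vs CTR lies beyond 0.53.

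The genes whose levels over the 3 lines were most like those of BCL2L1 and MCL1 were sought among 13669 others by the Euclidean distance of their log2(FPKM + 1) values, a likeness over only 3 values. For BCL2L1 they were the globin gene HBA1 (83.1, 25.0 and 110 FPKM in CTR, CEBPA and P30, distance 0.23), BNIP3L (distance 0.26) and PIM2 (distance 0.26). HBA1 shares reads with its near-identical copy and its level is uncertain. For MCL1 they included SLC16A1 (77.8, 151 and 83.2 FPKM, distance 0.15) and YME1L1 (90.0, 163 and 97.9, distance 0.24).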

How the data were processed

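RNA-seq was carried out on K562 lines with an empty (CTR), a C/EBPα (CEBPA) or a p30 (P30) cassette, 2 replicates each, after 48 h of doxycycline. The authors aligned the reads to hg19 with TopHat2 (version 2.0 in the submitters' processing notes) and deposited FPKM estimated with Cuffdiff on a Gencode annotation, with both replicates pooled into 1 value per gene and group. Cuffdiff's library normalization and the selection of rows are not given in the sources used here. Read counts, and so the depth per sample, are unknown from these values, and the paper gives only a range over its samples.

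Differences of log2(FPKM + 1) were computed between groups as deposited, each row as 1 gene, among genes over 1 FPKM in either group. Limits were 2-fold and 1.5-fold on this scale. No test could be run on single pooled values. Class sums add FPKM over genes. Genes named are the 10 members, their relatives, the genes of each further list past 2-fold in any comparison (or the extremes where none passed), and the 3 genes nearest to BCL2L1 and MCL1. Marker lists are given as sums, and CD3E was named after its values had been seen. Some genes that this rule or the lists would name are not reported here. The members and lists were chosen with earlier results of these data known, and the groups followed the labels. Positions come from Gencode on GRCh37, a later release than the one of the authors, and BH3 windows from the GRCh37 genome, by the pattern leucine, 3 residues, a small residue, aspartate. Only the 2-fold calls were tested on simulated data, with no noise and with planted changes larger than the limit, so that full recovery was certain. Class sums, ratios, ranks and distances were not tested in this way. Python 3.11.15, numpy 2.4.6, pandas 2.3.3 and matplotlib 3.10.9 were used. Alternatives were a pseudocount of 0.1, centring, equal summed FPKM, summed rows of one symbol, no filter, a filter at 5 FPKM, and other class members.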

Additional observations from a re-analysis of the deposited data

How the results depend on the processing

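No paired analysis was possible because the replicates had been pooled before deposit, and for the same reason neither a replicate block nor leaving out a replicate could be tried. In place of replicate error, a log2 value or the log2 of a ratio was taken as moved when it shifted by over 0.20, the spread of all genes in P30 vs CTR, and a count when it shifted by over 1.5 times. Of 417 recomputed values of 78 results, 390 stayed within these limits, the log2 changes of the 10 members and the counts of members past 2-fold or 1.5-fold among them. Within these limits, the members 1.5-fold lower in CEBPA vs CTR still went from 4 to 3 with equal summed FPKM. BAD, at -0.63, was then at -0.51 and no longer passed 1.5-fold. Part of the count of 390 was fixed in advance. Each member has 1 row, so summing rows of one symbol could not change it, and centring shifted each log2 change by at most 0.036. Equal summed FPKM shifts most genes by a similar amount, also under the limit. The count of 390 therefore says little about how firm the values are. In CEBPA vs CTR, BCL2L1 lay between -1.62 and -1.47, MCL1 between 1.02 and 1.14 and BBC3 between -1.42 and -1.14. With equal summed FPKM the median of all genes shifted by 0.11 (CEBPA vs CTR) and 0.13 (CEBPA vs P30), and PMAIP1 (CEBPA vs CTR) changed sign. BAK1 (P30 vs CTR, 0.01) changed sign with this scaling and with centring.

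The ratio of survival to death crossed 1 with the class members. With the other relatives added it was 1.09 in CTR, 1.59 in CEBPA and 1.08 in P30. Without the highest gene of each class, chosen separately in each line, it was 0.641, 0.299 and 0.778. BAX was left out in every line, with BCL2L1 in CTR and P30 but MCL1 in CEBPA. These values thus rest on different genes and do not compare the lines. In settings chosen after seeing the data, the relatives were again left out. The ratio was then 0.410, 0.200 and 0.472 without MCL1, 0.387, 1.17 and 0.452 without BCL2L1, and 1.32, 2.04 and 1.59 without BAX. The cause in each case is the gene left out or added.

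The median of the survival genes with the relatives added was 0.29 (CEBPA vs CTR) and 0.19 (CEBPA vs P30), -1.58 and -1.80 without the highest gene, and 0.023 in CEBPA vs P30 without a filter. Without the highest gene, here MCL1, only BCL2L1 was left over 1 FPKM, so -1.58 and -1.80 are its own changes. Without a filter, 0.023 is the change of BCL2, which was under 1 FPKM. The median of the death genes was -0.13 in CEBPA vs CTR with the relatives. That of the other survival relatives was 4.34 (CEBPA vs CTR) and 3.37 (CEBPA vs P30) with pseudocount 0.1 and 0.31 (P30 vs CTR) with no filter. That of the other death relatives in CEBPA vs CTR was 0.052 without a filter and 0.45 at 5 FPKM, and that of the transcriptional inputs in CEBPA vs P30 was -1.06 at 5 FPKM. The causes of the other shifts listed here were not tested.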
